A study of Homo sapiens with 6 samples.

Results

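Molecular chaperones of the cytosol and mitochondria, with the heat shock factors that drive their transcription and the co-chaperones that work with them, were followed in HCT116 colorectal cancer stem cells after PSCA siRNA. The members were 54 gene symbols of the heat shock factor, HSP70 and HSP110, HSP90, small HSP, HSP60, J-domain (HSP40), BAG, co-chaperone, TRiC and prefoldin families. They were found in the expression table by gene name, with no use of their values. The table held 55 entries for them among 58735 genes, since HSPA14 was listed under 2 gene IDs. HCT116 is a human colon carcinoma line, and its stem cell fraction (HCT116SCs) had been sorted by CD44 and CD326 and grown as serum-free spheres. All 6 libraries came from these cells, labelled as wild type, and were collected 48 h after lipid transfection of an siRNA. The NC group (3 libraries, NC 1 to NC 3) received a negative control siRNA, and the siPSCA group (3 libraries, siPSCA 1 to siPSCA 3) received siRNA against PSCA, a small GPI-anchored protein of the cell surface. Which of the PSCA siRNA sequences entered each library was not given, no untransfected cells were sequenced, and the titles of siPSCA 2 and siPSCA 3 name the cells HCT117 and HCT118, whereas their other labels name HCT116.

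Chaperones bind unfolded or partly folded proteins and keep them from clumping until they fold, are handed on or are degraded. HSP70 proteins bind short stretches of a client in a cycle of ATP hydrolysis that J-domain proteins start and nucleotide exchange factors such as the BAG and HSP110 proteins end. HSP90 acts later on kinases and hormone receptors, small HSPs hold unfolded proteins without ATP, and the ring chaperonins HSP60 (mitochondria) and TRiC (cytosol) enclose their clients, with prefoldin delivering actin and tubulin to TRiC. When unfolded proteins build up, HSF1 binds heat shock elements, inverted repeats of the unit nGAAn, and switches on the heat-inducible members. Tumour cells commonly hold high levels of many of these proteins.

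Expression was given as FPKM, fragments scaled by gene length and library size, so that levels could be compared between genes. Between 16099716 and 17302219 reads fell on genes in a library. PSCA itself had 4, 12 and 15 reads in NC 1 to NC 3 and 9, 9 and 7 reads in siPSCA 1 to siPSCA 3, so the groups overlapped and the knockdown could not be checked at this depth. Of 10 colorectal epithelial markers, 8 had a mean FPKM of at least 1, EPCAM and CD44 among them, whereas CDX1 was listed at 0 and VIL1 lay near 0. Their summed FPKM was 812.5 to 873.6 in the NC and 866.2 to 894 in the siPSCA libraries, a sum that hides opposite moves: CD44 and CDH1 lay lower in every siPSCA library (59.6 to 62.4 against 79.2 to 87.5 FPKM for CD44) and KRT8 and KRT19 higher. None of 5 leukocyte and none of 3 endothelial markers had a mean FPKM of 1, and CD68 and CD3E were listed at 0. Of 6 fibroblast markers only COL1A1 did, and the summed FPKM of these was 3.49 to 5.74 in NC and 6.17 to 6.74 in siPSCA. The part of these markers in the results below was not tested. NC 3 stood apart from its group: the chi-square per gene, which is 1 at sampling noise, was 2.35 between NC 1 and NC 2 but 20.6 and 16.6 between NC 3 and those 2 libraries, against 2.31 to 3.78 within siPSCA. Among the 53 entries tested below, NC 3 was the highest NC library for 39 and the lowest for 10.

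Of the 55 entries, 53 had a mean FPKM of at least 1 and were tested with limma on log2(FPKM + 1), and a member was called at an adjusted p under 0.05. After PSCA siRNA 18 members rose (34.0%) and 5 fell (9.43%), and 30 had no call. Across all 13796 tested genes 26.6% were called higher and 24.2% lower, 50.7% in all. The members called higher were thus somewhat above the share of all genes, and those called lower below it. In 19 members every siPSCA library lay above every NC library and in 8 every siPSCA library lay below, against 33.7% and 30.8% of all tested genes. The median log2 fold change, given throughout as siPSCA minus NC on the log2(FPKM + 1) scale, was 0.06 over the members and 0.01 over all tested genes. HSPA2 and CRYAB fell under the minimum. HSPA1A passed the minimum only through its siPSCA values, so its call gives no support, and without it 17 of 52 were higher. No member passed through NC alone. In bulk RNA, fewer cells of a type and less RNA per cell cannot be told apart.

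**Figure D1:**
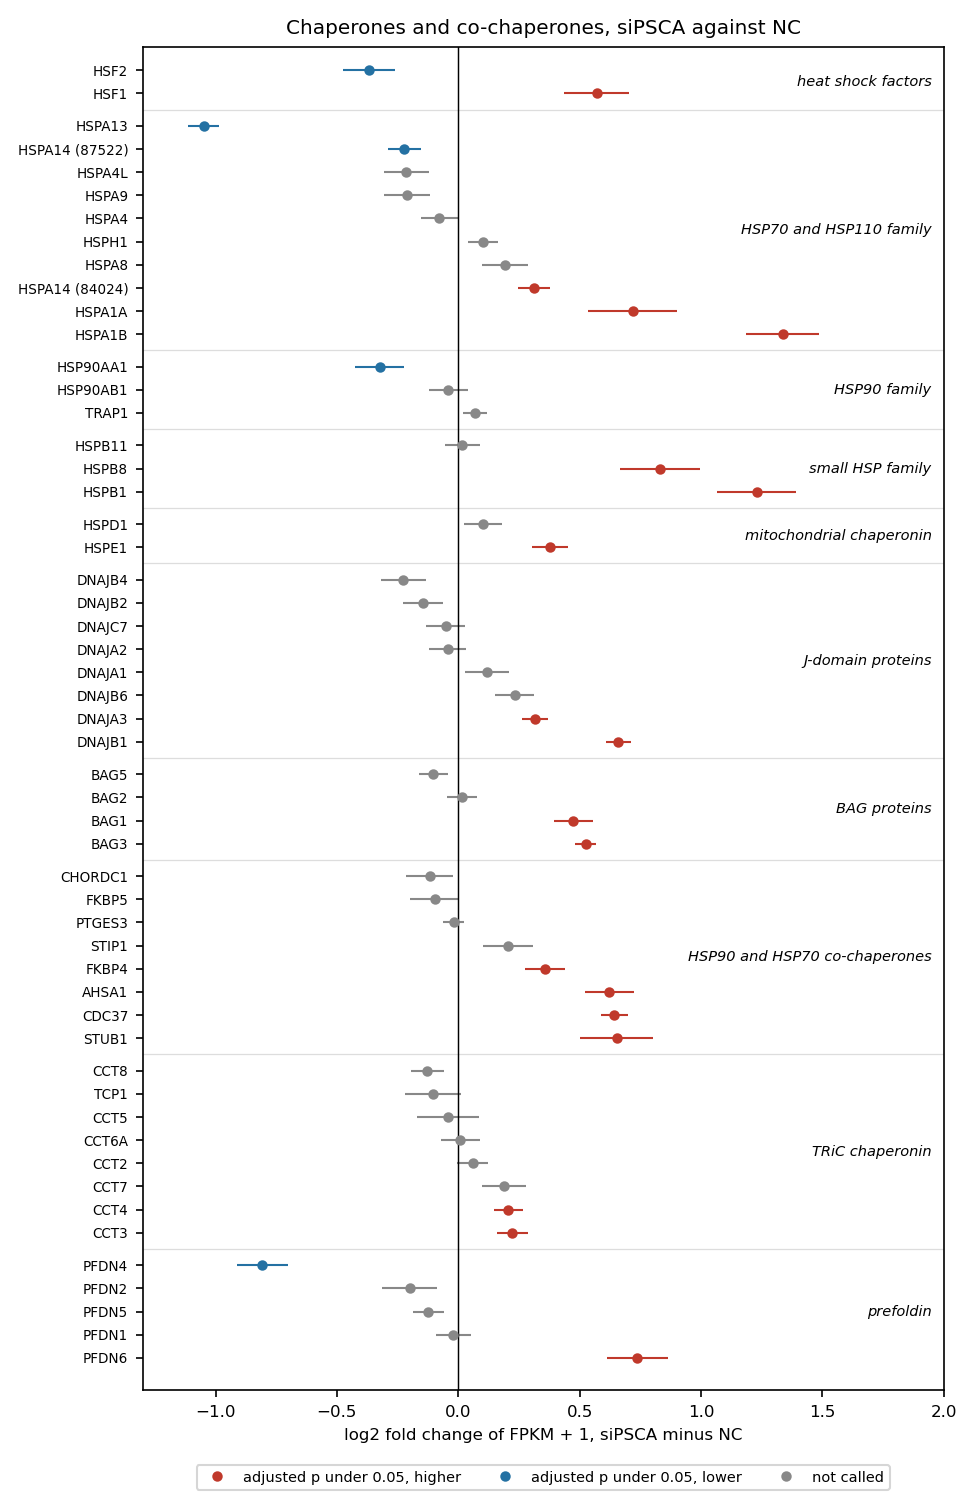
Log2 fold change of FPKM + 1 (horizontal axis, siPSCA minus NC) for the 53 tested entries, by family, with bars of 1 SE from limma and the last digits of the gene ID beside the entries of HSPA14. Red points passed the adjusted threshold as higher (18), blue as lower (5), grey points did not pass (30), and HSPA1B and HSPB1 lie farthest to the right and HSPA13 farthest to the left.

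The members made up 1.58% to 2.00% of the summed FPKM of a library, and 11 of them had a mean FPKM over 100. The most abundant were HSP90AB1, HSP90AA1, HSPA8, HSPD1 and HSPB1, in that order of mean FPKM. The summed FPKM over all members was 4452, 4668 and 5342 in NC and 5037, 4931 and 5009.5 in siPSCA, and these ranges overlapped. By family, the sum of the small HSPs was 2.23 times as high in siPSCA as in NC. HSPB1 made up most of it, with a mean of 122.5 of 132.55 FPKM in NC and 283.5 of 295.8 in siPSCA. The sum of the BAG proteins was 1.27 times as high and that of the HSP90 and HSP70 co-chaperones 1.22 times. The sums of HSP90 and prefoldin were 0.903 and 0.890 times those of NC. BAG3 made up 31.1 of 57.2 FPKM of the mean BAG sum in NC and 45.3 of 72.7 in siPSCA. The small HSP, BAG and co-chaperone sums did not overlap between the groups. Those of the heat shock factors and the J-domain proteins, each 1.13 times as high, did not either. The sums of HSP90 and prefoldin overlapped, with NC 3 the highest library of both.

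The counts by family that follow are small and stand beside 26.6% higher and 24.2% lower among all tested genes. The heat shock factors moved apart. HSF1, the main activator of heat shock genes, had 18.8, 17.2 and 12.8 FPKM in NC and 25.0, 24.8 and 23.3 in siPSCA, and its groups did not overlap. It rose by a log2 fold change of 0.57 ± 0.13 (SE; limma adjusted p = 0.0147, n = 3 and 3). This call was lost without siPSCA 1 or siPSCA 2, and HSF1, at 63.9% GC, had a log2 fold change of -0.03 once the trend of each library on GC content and length, described below, was removed. HSF2, a second factor that can form trimers with HSF1, had 13.9, 15.5 and 18.4 FPKM in NC and 12.0, 11.3 and 12.9 in siPSCA. Every siPSCA library lay below every NC library, and the log2 fold change was -0.37 ± 0.11 (SE; limma adjusted p = 0.0297). The call was lost without NC 2, siPSCA 1 or siPSCA 2, and the log2 fold change was -0.13 after trend removal.

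The promoters of the members were read for the letters HSF1 binds. RefSeq promoters (GRCh38.p14, 250 bases before to 50 after the start) were matched for 46 of 54 symbols. CCT6A, CRYAB, FKBP4, HSF1, HSPA14, HSPB11, PFDN2 and STUB1 had none. Only 1 promoter per gene was read, the first listed, so any other start of a gene was not searched. Searched were the 3-unit runs GAANNTTCNNGAA and TTCNNGAANNTTC and the 2-unit runs GAANNTTC and TTCNNGAA, each set read on both strands, the shorter lying inside the longer. A 3-unit run was present in 4 members (8.7%), against 0.487% of 27305 promoters, and a 2-unit run in 13 members (28.3%), against 13.7%. The 4 with a 3-unit run were HSPA8, CHORDC1, DNAJA1 and DNAJB6, and none of them was called. After trend removal each of these 4 was called higher, at 0.25, 0.29, 0.28 and 0.33 in that order. In that fit 49.1% of the tested members and 21.6% of all tested genes were higher. Without NC 3, HSPA8, DNAJA1 and DNAJB6 were called higher and CHORDC1 was not. Before trend removal 14 members with a promoter were called higher. Of these, 6 held a 2-unit run (HSPA1A, HSPA1B, HSPB1, HSPB8, PFDN6 and CCT4) and 0 a 3-unit run. HSPA1A, 1 of these 6, passed the minimum FPKM only through siPSCA, so its call gives no support here. Of 4 called lower none held either, and of 27 with no call 7 held a 2-unit run. The windows are shown for the 3-unit runs and for the members called higher, 5′ to 3′ on the strand of the gene, with the run in capitals.
HSPA8, distal (chr11:123062348-123062372, minus strand): gagcttGAAAGTTCCAGAAcgctgc
HSPA8, proximal (chr11:123062173-123062197, minus strand): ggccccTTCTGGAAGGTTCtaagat
CHORDC1 (chr11:90223084-90223112, minus strand): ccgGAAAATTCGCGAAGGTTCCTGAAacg
DNAJA1 (chr9:33025270-33025294, plus strand): cgggcgGAACTTTCCAGAAcgctcg
DNAJB6 (chr7:157336867-157336891, plus strand): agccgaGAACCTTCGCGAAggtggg
HSPA1A (chr6:31815431-31815450, plus strand): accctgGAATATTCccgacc
HSPA1B (chr6:31827627-31827646, plus strand): cccctgGAATATTCccgacc
HSPB1 (chr7:76302485-76302504, plus strand): acgagaGAAGGTTCcagatg
HSPB8, before the start (chr12:119178837-119178856, plus strand): acctccGAATATTCctgtga
HSPB8, after the start (chr12:119178929-119178948, plus strand): ccagaaGAAGTTTCtaggcg
PFDN6 (chr6:33289544-33289563, plus strand): cagaaaGAAACTTCcggcac
CCT4 (chr2:61888607-61888624, minus strand): gccgctTTCTGGAAggtt
The runs of HSPA1A and HSPA1B lay 106 to 99 and 105 to 98 bases before the RefSeq start of each gene, that of HSPB1 182 to 175 bases before, and the proximal run of HSPA8 55 to 43 bases before. In CHORDC1, 3 overlapping 3-unit matches joined into 1 run 60 to 38 bases before the start. Only exact units were counted, so a run with an imperfect unit was missed. These matches describe letters in a window of 300 bases and do not show that a factor was bound.

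Among the HSP70 and HSP110 genes, of which 10 of 11 entries were tested, 3 were called higher, HSPA1A among them, and 2 lower, and the stress-inducible HSPA1B rose most. HSPA1B, 1 of 2 adjacent genes for the same inducible HSP70 protein, had 18.7, 19.4 and 12.9 FPKM in NC and 46.3, 43.1 and 41.9 in siPSCA. The groups did not overlap and NC 3 was the lowest library. Its log2 fold change was 1.34 ± 0.15 (SE; limma adjusted p = 0.00157), and it was 1.16 without NC 3 and 0.93 (limma adjusted p = 0.00049) after trend removal. HSPA1A had far lower values, 0.455, 0.925 and 1.24 FPKM in NC and 2.38, 2.08 and 1.68 in siPSCA. Since siPSCA alone took it over the minimum, its log2 fold change of 0.72 ± 0.18 (SE; limma adjusted p = 0.0192) is given as a description, and the call was lost without siPSCA 1, without siPSCA 2, with no minimum FPKM and after trend removal, where the fold change was 0.29. HSPA1A and HSPA1B are near copies: 70.1% of the 75-base stretches of HSPA1B also occur in HSPA1A and 69.3% of those of HSPA1A in HSPA1B, so how the reads were split between them is uncertain. The FPKM of both genes together was 19.1, 20.3 and 14.1 in NC and 48.7, 45.2 and 43.5 in siPSCA, a ratio of the means of 2.57. This sum does not turn on that split, but it would lack shared reads that were dropped or given to other genes. HSPA1B also shares 920 exon bases (36.5%) on the same strand with AL671762.1, and how reads there were counted was not given.

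HSPA8, the constitutive HSC70 of the cytosol and the carrier of 2 of the 3-unit runs shown above, had 331, 347 and 422 FPKM in NC and 416, 409 and 425 in siPSCA. NC 3 lay within the siPSCA range, so the groups overlapped, and the log2 fold change of 0.19 ± 0.09 (SE) was not called (limma adjusted p = 0.134). It was called higher at 0.30 without NC 3 (limma adjusted p = 0.00144) and at 0.25 after trend removal (limma adjusted p = 0.0415). The inducible pair HSPA1A and HSPA1B summed to 5.78%, 5.85% and 3.34% of the FPKM of HSPA8 in NC and to 11.7%, 11.1% and 10.2% in siPSCA. Within each siPSCA library the inducible form was thus a larger share of its constitutive relative, a ratio chosen after its values had been seen.

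HSPA13, an HSP70-like ATPase of the microsomal fraction and so not a cytosolic heat shock protein in its known role, fell most of all members. It had 22.5, 22.5 and 25.6 FPKM in NC and 10.6, 11.03 and 10.9 in siPSCA. The groups lay far apart, with a log2 fold change of -1.05 ± 0.07 (SE; limma adjusted p = 0.000361), and of -0.75 after trend removal (limma adjusted p = 0.000191). HSPA14, a ribosome-associated HSP70, gave opposite values under its 2 gene IDs, which share 460 exon bases on the same strand. The longer locus, chr10:14838164-14871741 (ENSG00000187522), had 9.39, 9.38 and 10.4 FPKM in NC and 8.14, 7.70 and 8.72 in siPSCA and fell by 0.22 on the log2 scale (limma adjusted p = 0.0339). The shorter, chr10:14838160-14847018 (ENSG00000284024), had 4.87, 5.55 and 5.42 FPKM in NC and 6.89, 7.05 and 6.43 in siPSCA and rose by 0.31 (limma adjusted p = 0.0107). The fall was lost without NC 1, NC 2, siPSCA 1 or siPSCA 2 and became 0.02 after trend removal, whereas the rise was called in each of the fits judged by adjusted p and, like the fall, is smaller than 0.5.

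The remaining HSP70 and HSP110 genes are given for completeness, outside the rule that chose the names. HSPA4 and HSPA4L, HSP110-type exchange factors, had log2 fold changes of -0.08 and -0.21 with no call, HSPA9, the mitochondrial HSP70, had -0.21 with no call, and HSPH1 (HSP105) had 0.10. HSPH1 ran from 25.7 to 29.5 FPKM in NC and between 28.6 and 30.4 in siPSCA, and with a GC content of 39.3% it was called higher at 0.47 after trend removal. HSPA4 and HSPA4L were called higher at 0.17 and 0.18 after trend removal, whereas HSPA4L was called lower with a replicate block (limma adjusted p = 0.0377). The testis-enriched HSPA2 stayed between 0.804 and 0.924 FPKM in NC and between 1.02 and 1.26 in siPSCA and was not tested.

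The small HSPs held the other large rise. HSPB1 (HSP27), an actin-associated holdase that stress kinases phosphorylate, had 141, 135 and 91.4 FPKM in NC and 294, 284 and 273 in siPSCA. Each siPSCA library was well above each NC library, and NC 3 was the lowest. The log2 fold change was 1.23 ± 0.16 (SE; limma adjusted p = 0.0024). It was 1.03 without NC 3 and 0.65 after trend removal (limma adjusted p = 0.000263), a transcript of 63.6% GC. HSPB8, which works with BAG3 to pass misfolded proteins to autophagy, was a low-abundance transcript with 2.52, 2.11 and 1.26 FPKM in NC and 4.46, 4.09 and 4.01 in siPSCA. The lowest siPSCA library exceeded the highest NC library, and the log2 fold change was 0.83 ± 0.17 (SE; limma adjusted p = 0.00829) and 0.76 after trend removal. HSPB11, a member of the intraflagellar transport machinery in spite of its name, had 7.60 to 8.18 FPKM in NC and 7.28 to 8.62 in siPSCA. Its log2 fold change was 0.02 with no call, and it was called higher at 0.26 after trend removal (limma adjusted p = 0.0301). CRYAB (alpha-B crystallin) lay between 0.118 and 0.306 FPKM in NC and between 0.0556 and 0.117 in siPSCA, 3 to 16 reads in a library, and was not tested.

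**Figure D2:**
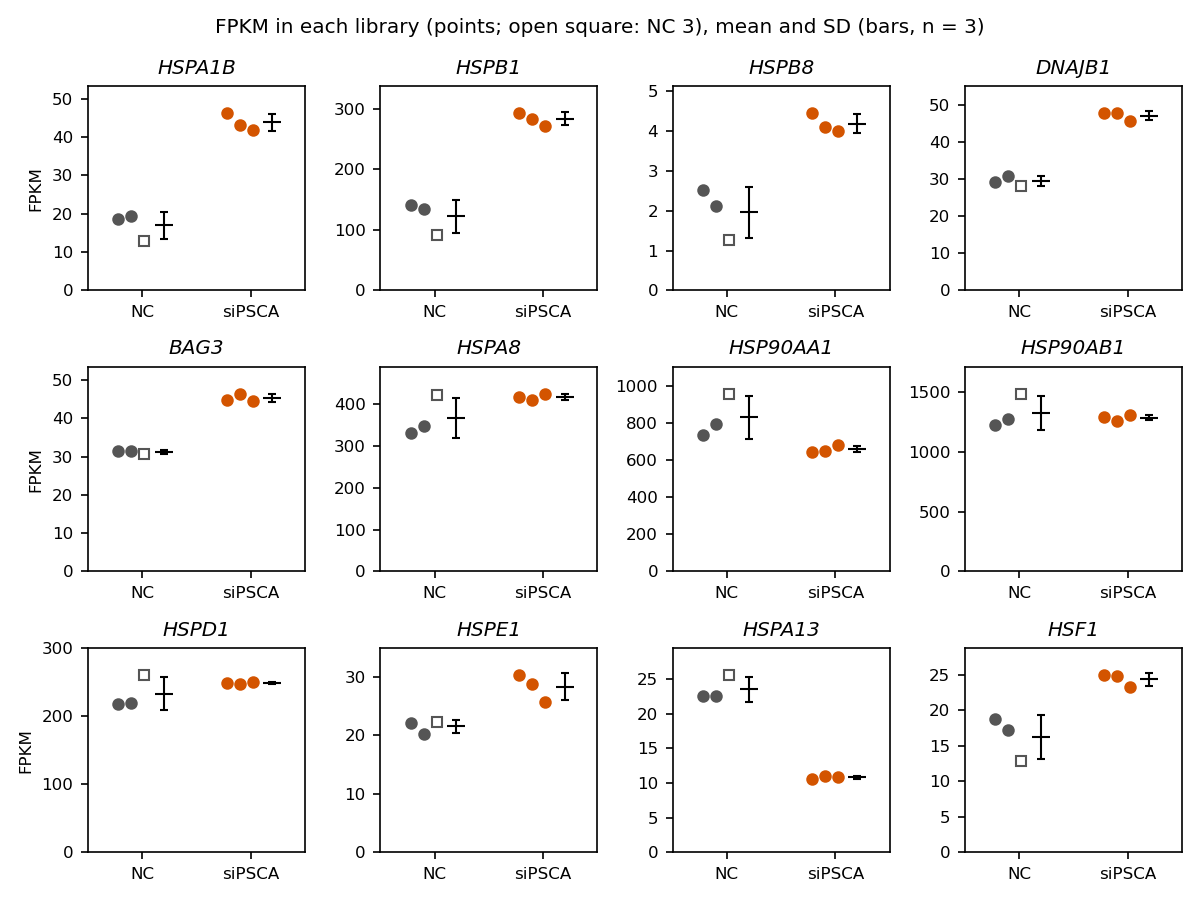
FPKM (vertical axis, from 0) of 12 members in each library, with NC in grey, siPSCA in orange, NC 3 as an open square and bars for the mean and SD of 3 libraries. HSPA1B, HSPB1, HSPB8, DNAJB1, BAG3, HSPE1 and HSF1 lie wholly higher in siPSCA, HSP90AA1 and HSPA13 wholly lower, and in HSPA8, HSP90AB1 and HSPD1 the groups overlap with NC 3 at or near the top.

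The cytosolic HSP90 genes differed from each other. HSP90AA1, the inducible form, had 737, 793 and 957 FPKM in NC and 645, 651 and 678 in siPSCA. It fell, its groups did not overlap, and the log2 fold change was -0.32 ± 0.10 (SE; limma adjusted p = 0.0349). The call was lost without NC 2, siPSCA 1, siPSCA 2 or siPSCA 3, with no minimum FPKM and after trend removal (-0.20, limma adjusted p = 0.0973), but held at -0.22 without NC 3 (limma adjusted p = 0.0094). HSP90AB1, the constitutive form and the most abundant member, had 1220.1, 1272 and 1486 FPKM in NC and 1289, 1260.2 and 1303 in siPSCA. The siPSCA libraries lay inside the NC range, with a log2 fold change of -0.04 ± 0.08 (SE; limma adjusted p = 0.695). The ratio of HSP90AA1 to HSP90AB1, chosen after its values had been seen, was 0.604, 0.623 and 0.644 in NC and 0.5004, 0.516 and 0.520 in siPSCA, and here NC 3 did not stand apart from its group. The inducible HSP90 gene and the inducible HSP70 genes therefore had opposite signs in these libraries.

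Of 5 mitochondrial members 2 rose, HSPE1 and DNAJA3, and none fell. HSPE1 (HSP10), the lid of the HSP60 ring, had 22.0, 20.3 and 22.2 FPKM in NC and 30.3, 28.7 and 25.7 in siPSCA. It rose by a log2 fold change of 0.38 ± 0.07 (SE; limma adjusted p = 0.00804) and was called in each of the fits judged by adjusted p, but its change is smaller than the 0.5 on the log2 scale set in a further alternative. HSPD1 (HSP60), which is transcribed from the same bidirectional promoter, had 218, 220 and 261 FPKM in NC and 249, 247 and 250 in siPSCA. These groups overlapped through NC 3, and the log2 fold change of 0.10 ± 0.08 (SE; limma adjusted p = 0.316) was not called, though without NC 3 it was 0.18 (limma adjusted p = 0.00285). The ratio of HSPE1 to HSPD1 was 0.101, 0.0922 and 0.0851 in NC and 0.122, 0.116 and 0.103 in siPSCA, so the lowest siPSCA library lay just above the highest NC library. The exons of HSPD1 and HSPE1 overlap by 281 bases on opposite strands, 14.2% of the exon bases of HSPE1, and whether reads were counted by strand was not given, so reads of the pair cannot be told apart there. TRAP1, the mitochondrial HSP90, had 25.1, 25.6 and 27.0 FPKM in NC and 27.2, 27.7 and 26.9 in siPSCA, a log2 fold change of 0.07 ± 0.05 (SE; limma adjusted p = 0.269) and overlapping groups. DNAJA3, the J-domain partner of mitochondrial HSP70, which was taken up after its values had been seen, rose by 0.31 ± 0.05 (SE; limma adjusted p = 0.00509), from a mean of 10.99 to a mean of 13.9 FPKM.

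Of the 8 J-domain members 2 rose, about the share of all genes, and none fell. DNAJB1 (HSP40), the stress-inducible partner of HSP70, had 29.4, 30.9 and 28.3 FPKM in NC and 47.7, 47.9 and 45.8 in siPSCA. The libraries of each group lay close together, and the groups were clearly separate. Its log2 fold change was 0.66 ± 0.05 (SE; limma adjusted p = 0.0007), 0.63 without NC 3 and 0.40 after trend removal (limma adjusted p = 0.000682). DNAJA3, given above, was the other member that rose. The other 6 had no call: DNAJA1, DNAJA2, DNAJB2, DNAJB4, DNAJB6 and DNAJC7, with log2 fold changes from -0.23 to 0.23. DNAJA1 and DNAJB6, whose promoters hold the 3-unit runs shown above, had log2 fold changes of 0.12 and 0.23, and both were called higher without NC 3 and after trend removal. DNAJA2 had -0.04 and was called higher at 0.20 after trend removal (limma adjusted p = 0.0197). DNAJB2, at 59.4% GC, had -0.14 and was called lower at -0.52 after trend removal (limma adjusted p = 0.000443).

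The BAG proteins end the HSP70 cycle by releasing ADP, and 2 of 4 rose and none fell. BAG3, the partner of HSPB8, had 31.5, 31.3 and 30.6 FPKM in NC and 44.8, 46.4 and 44.6 in siPSCA, without overlap. Its log2 fold change was 0.52 ± 0.04 (SE; limma adjusted p = 0.000753), and it was 0.51 without NC 3. After trend removal it was 0.14 with no call, in a transcript of 58.3% GC. BAG1 rose from a mean of 4.98 ± 0.09 to 7.33 ± 0.83 FPKM (SD, n = 3), a log2 fold change of 0.47, and kept 0.45 after trend removal. BAG2 and BAG5 had 0.01 and -0.10 with no call, and BAG2 was called higher at 0.37 after trend removal (limma adjusted p = 0.00572). BAG1 and BAG3 were taken up after their values had been seen.

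Of the 8 co-chaperones of HSP90 and HSP70, 4 rose and none fell. After trend removal 3 were higher, AHSA1, CHORDC1 and PTGES3, so of the 4 that rose AHSA1 alone kept its call. STUB1 (CHIP), the ubiquitin ligase that marks HSP70 and HSP90 clients for degradation, had 9.25, 12.5 and 9.10 FPKM in NC and 19.5, 16.0 and 14.5 in siPSCA. It rose by a log2 fold change of 0.65 ± 0.15 (SE; limma adjusted p = 0.0134), but the value was -0.0024 after trend removal, at 64.3% GC. STUB1 shares 42.4% of its exon bases with JMJD8 on the opposite strand. CDC37, which brings kinases to HSP90, had 54.7, 58.4 and 56.5 FPKM in NC and 93.1, 89.4 and 84.3 in siPSCA, and the groups lay far apart. Its log2 fold change was 0.64 ± 0.06 (SE; limma adjusted p = 0.000798) and 0.14 with no call after trend removal, at 60.7% GC.

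The others of this family lie outside the naming rule and complete the count. AHSA1, which stimulates the ATPase of HSP90, had 32.3, 34.5 and 42.3 FPKM in NC and 57.2, 57.2 and 54.03 in siPSCA. It rose by 0.62 ± 0.10 (SE; limma adjusted p = 0.00437) and, unlike CDC37, kept 0.54 after trend removal, with 49.8% GC. FKBP4 (FKBP52), an immunophilin of steroid receptor complexes, rose by 0.36 (limma adjusted p = 0.0138), a call lost without siPSCA 1. STIP1 (HOP), the HSP70 to HSP90 adaptor, had 69.9, 77.5 and 93.5 FPKM in NC and 91.0, 91.2 and 93.9 in siPSCA, overlapped through NC 3 alone and had no call at 0.20. CHORDC1, PTGES3 (p23) and FKBP5 (FKBP51) had log2 fold changes of -0.12, -0.02 and -0.10 with no call. After trend removal CHORDC1 and PTGES3 were called higher, at 0.29 and 0.16 (limma adjusted p = 0.015 and 0.0414).

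TRiC is a ring of 8 different subunits, of which 2 rose by small amounts and none fell. CCT3 had 138, 144 and 160 FPKM in NC and 175, 169 and 171 in siPSCA. It rose by 0.22 ± 0.06 (SE; limma adjusted p = 0.0287), a call lost when any library but NC 3 was left out. CCT4 had 82.5, 89.1 and 91.0 FPKM in NC and 105, 102 and 96.4 in siPSCA and rose by 0.21 ± 0.06 (SE; limma adjusted p = 0.0278), a call lost without NC 1, NC 2, siPSCA 1 or siPSCA 2. CCT7 had 107, 111 and 134 FPKM in NC and 135, 133 and 130.3 in siPSCA. Only NC 3 reached the siPSCA level, and the log2 fold change of 0.19 was not called (limma adjusted p = 0.124). CCT8 had 105, 107 and 122 FPKM in NC and 104, 99.7 and 101 in siPSCA, all below NC, at -0.13 with no call (limma adjusted p = 0.161). TCP1, CCT2, CCT5 and CCT6A overlapped between the groups, with log2 fold changes of -0.11, 0.06, -0.04 and 0.01, the last turning to -0.04 as TPM. After trend removal CCT2, CCT3, CCT4 and CCT6A were called higher, at 0.24, 0.18, 0.34 and 0.23, and all 8 subunits had a positive sign, whereas 5 were positive and 3 negative before it.

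Prefoldin, which hands unfolded actin and tubulin to TRiC, moved in both directions. PFDN6, a beta-type subunit, had 5.36, 6.28 and 6.37 FPKM in NC and 11.7, 11.8 and 8.72 in siPSCA. It rose by 0.74 ± 0.13 (SE; limma adjusted p = 0.00507) and by 0.49 after trend removal (limma adjusted p = 0.0225), and it shares 24.5% of its exon bases with RGL2 on the opposite strand. PFDN4, another beta-type subunit, had 13.9, 14.3 and 18.2 FPKM in NC and 8.20, 8.18 and 8.64 in siPSCA. It fell by 0.81 on the log2 scale (SE 0.10, limma adjusted p = 0.00217), by 0.69 without NC 3 and by 0.53 after trend removal. The ratio of PFDN6 to PFDN4, chosen after its values had been seen, was 0.386, 0.440 and 0.350 in NC and 1.43, 1.44 and 1.01 in siPSCA, so PFDN6 was the lower of the pair in every NC library and the higher in every siPSCA library.

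The 3 other prefoldin members had no call, and VBP1, the remaining subunit, was no member and is counted with the other cytosolic chaperones below. PFDN1 had 18.2, 18.4 and 21.3 FPKM in NC and 19.5, 18.4 and 19.0 in siPSCA, and its log2 fold change was -0.02. PFDN2 had 72.3, 92.5 and 97.2 FPKM in NC and 78.6, 74.6 and 72.7 in siPSCA, at -0.20 (limma adjusted p = 0.185), and NC 1 alone lay below the siPSCA libraries. PFDN5 had 26.6, 29.3 and 30.6 FPKM in NC and 26.9, 25.9 and 26.2 in siPSCA, at -0.12, and was called lower at -0.21 after trend removal.

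**Figure D3:**
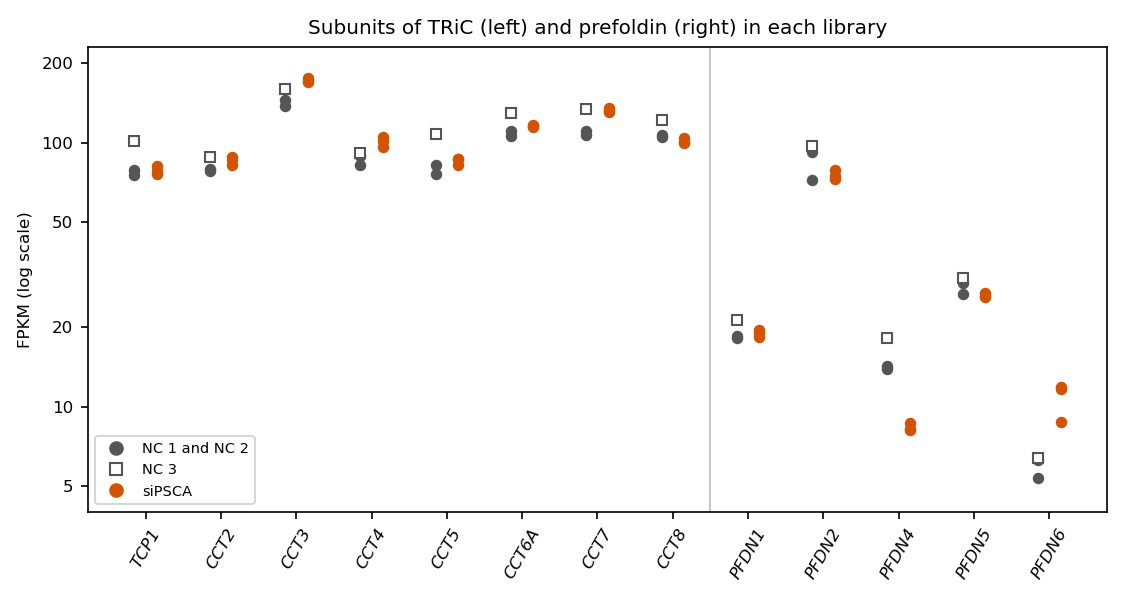
FPKM (vertical axis, log scale) of the 8 TRiC subunits and 5 prefoldin subunits in each library, with NC 1 and NC 2 as grey points, NC 3 as an open square and siPSCA in orange. The TRiC subunits keep similar levels in both groups with NC 3 the highest NC library throughout, while PFDN4 and PFDN6 move in opposite directions.

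Heat-inducible members, a textbook list of 18 genes that heat or other protein stress can induce, were compared with the rest by counts. Of the 17 tested, 8 rose (47.1%, against 26.6% of all tested genes) and 1 fell, HSP90AA1, with a median log2 fold change of 0.20. HSPA1A, which passed the minimum through siPSCA alone, is among the 8, and 7 of 16 rose without it. The 8 were HSPA1A, HSPA1B, HSPB1, HSPE1, DNAJB1, BAG3, AHSA1 and FKBP4. Outside the list, 10 of 36 tested members rose (27.8%) and 4 fell (11.1%), with a median of -0.02, a higher share close to that of all genes. Without NC 3 the heat-inducible list had 13 higher and 1 lower of 17, and the members outside it 12 higher and 5 lower of 37. In that fit 29.2% of all tested genes were higher. After trend removal the list had 11 higher and none lower, with a median of 0.28, and HSPA1A, BAG3 and FKBP4 were not among the 11. The members outside it then had 15 higher (41.7%) and 4 lower of 36, with a median of 0.09. Both shares lay above the 21.6% of all tested genes that were higher in that fit. The list had been set with earlier results of these data known, and the difference between the lists was not tested.

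GC content moved with the calls. The median GC of the transcripts was 54.2% for the members called higher, 40.5% for those called lower, 44.3% for those with no call and 48.8% for all tested genes. Over the 53 tested entries, which share their libraries, the log2 fold change had a Spearman correlation of 0.68 with GC content, and over 13792 genes it was 0.67. NC 3 showed the same trend within its group: over those genes the gap between NC 3 and its 2 fellow libraries (NC 3 minus their mean) correlated with GC at -0.57. As an alternative, a smooth curve of GC content and gene length was subtracted in each library, called trend removal here, which brought the correlation to 0.06 over the members and 0.02 over all genes. With it 26 members were called higher and 4 lower, against 21.6% and 18.3% of all tested genes, and the median of the members was 0.18. Of the 18 members called higher 12 kept that call and of the 5 called lower 2 did, and 14 others became higher and 2 lower. The higher calls kept were those of HSPA1B, HSPB1, HSPB8, PFDN6, DNAJB1, AHSA1, BAG1, HSPE1, DNAJA3, HSPA14 (ENSG00000284024), CCT3 and CCT4, and the lower calls kept were those of HSPA13 and PFDN4. HSF1, HSPA1A, STUB1, CDC37, BAG3 and FKBP4 lost theirs.

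By limma-voom on reads recovered from the FPKM, 19 members were higher (35.8%) and 4 lower, against 30.1% and 23.4% of all tested genes, and all 18 higher and 4 of the 5 lower calls were kept. With an unadjusted p under 0.05 and a change beyond 0.5 on the log2 scale as the limits, 11 members were higher and 2 lower, against 14.7% and 10.2%.

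Leaving out NC 3 kept all 18 higher and all 5 lower calls. It added HSPA8, HSPH1, HSPD1, DNAJA1, DNAJB6, STIP1 and CCT7 as higher and DNAJB2 as lower, 25 and 6 in all, against 29.2% and 24.6% of all tested genes. With NC 3 left out and the trend removed as well, 34 members were higher and 6 lower, against 23.6% and 18.9%, and 16 of the 18 and 3 of the 5 calls were kept. The number of lower calls fell from 5 to 2 without NC 2, without siPSCA 1 or without siPSCA 2. Over all tested genes, calls in either direction fell as well. They went from 7001 of 13796 to 6010 of 13745, 4610 of 13842 and 4719 of 13824 in these 3 fits.

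**Figure D4:**
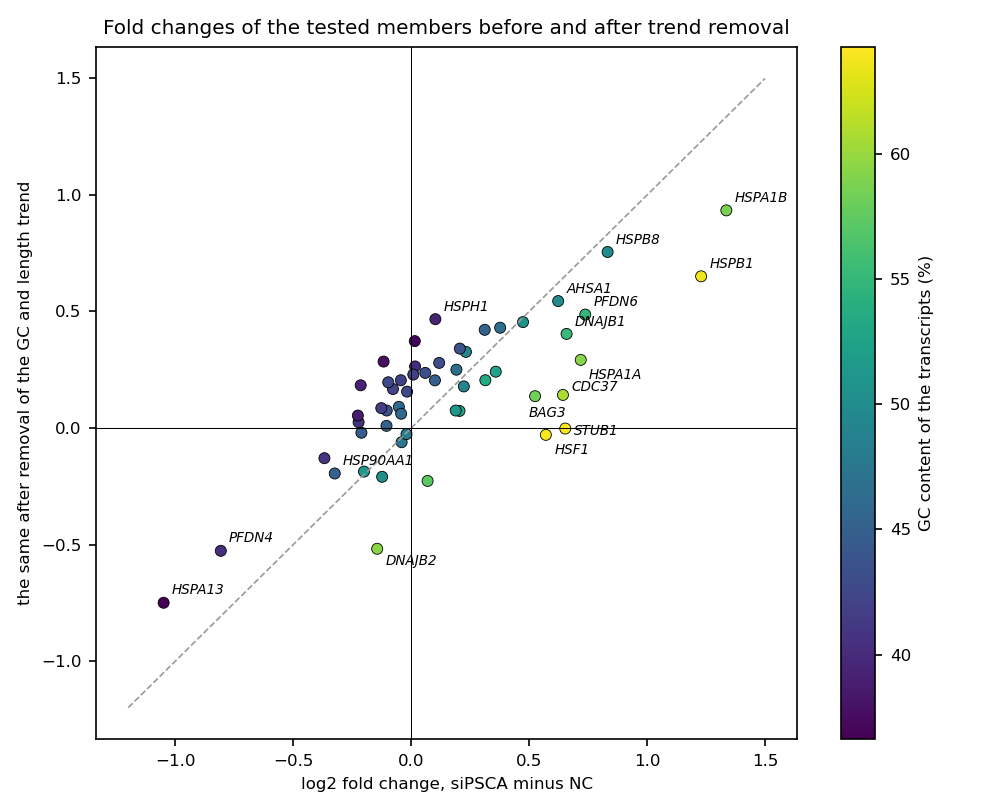
Log2 fold change of the 53 tested entries as measured (horizontal axis) and after removal of the GC and length trend (vertical axis), with colour for the GC content of the transcripts and a dashed line where both are equal. High-GC members such as HSF1, STUB1, CDC37 and BAG3 fall to near 0, low-GC members such as HSPH1 lie above the line, and HSPA1B, HSPB1, HSPB8, HSPA13 and PFDN4 stay away from 0 on both axes.

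Other genes of the same systems were counted from lists that hold no member. Of 52 other cytosolic chaperones and co-chaperones 44 were tested, and 14 rose (31.8%) and 10 fell (22.7%), near the 26.6% and 24.2% of all tested genes. HSPBP1, an exchange factor of HSP70, had 13.3, 13.6 and 10.1 FPKM in NC and 24.5, 24.7 and 23.0 in siPSCA, and rose by 0.92 (limma adjusted p = 0.0018), with 0.23 left after trend removal. FKBP8 rose by 0.60 (limma adjusted p = 0.0197) but had -0.11 after trend removal. DNAJB14, a J-domain protein of the ER membrane, fell by 0.70 (limma adjusted p = 0.00123). The higher calls numbered 7 (15.9%) without siPSCA 1 and 6 (13.6%) without siPSCA 2. Over all tested genes 2275 of 13842 and 2382 of 13824 were higher in those fits. After trend removal 11 genes were higher (25.0%) and 5 lower (11.4%), against 21.6% and 18.3% of all tested genes.

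Of 24 genes of mitochondrial import, folding and proteolysis, all tested, 8 rose (33.3%) and 4 fell (16.7%), against the same 26.6% and 24.2% of all genes. CLPP, the protease of the mitochondrial matrix, had 12.0, 12.6 and 9.12 FPKM in NC and 21.5, 19.5 and 17.8 in siPSCA, and rose by 0.76 (limma adjusted p = 0.00496). HTRA2, a protease of the intermembrane space, rose by 0.66 (limma adjusted p = 0.00279). DNAJC28 and GRPEL2, an exchange factor of mitochondrial HSP70, fell by 0.41 and 0.38 on the log2 scale (limma adjusted p = 0.0223 and 0.00392), and neither passed the threshold after trend removal. Without siPSCA 1 the list had 5 higher (20.8%) and 2 lower (8.33%) calls. In that fit 4610 of all 13842 tested genes were called, 2275 of them higher. After trend removal the list had 7 higher (29.2%) and 1 lower (4.17%), against 21.6% and 18.3% of all tested genes. The call of DNAJC28 was also lost without NC 2, siPSCA 1, siPSCA 2 or siPSCA 3.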

How the data were processed

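RNA-seq libraries (NEBNext Ultra, paired-end Illumina reads) of HCT116SCs were grouped by the treatment label, 3 NC and 3 siPSCA. The authors deposited 1 FPKM value per gene and library, and per the labels the genome build was GRCh38. The aligner, the counting program and the strand setting were not given in the sources used here. The gene positions and lengths of all 58735 genes equalled those of GENCODE 29. FPKM multiplied by gene length gave whole multiples of 1 step in each library (100% of values above 0, tolerance 0.05), and the reads so recovered gave the depth, 16099716 to 17302219 on genes. The labels do not say that the libraries came from separate cultures, so p-values measure the spread between these libraries, which may be technical.

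Every gene whose FPKM averaged 1 or more over the libraries was fitted with limma 3.58.1 (R 4.3.3, eBayes with trend) on log2(FPKM + 1), with group as the only term, and p-values were adjusted by Benjamini-Hochberg over all 13796 genes. The pseudocount of 1 understates the change of low genes. An exact permutation test of 3 against 3 cannot give a p below 0.1 and is not reported. Because the values are not counts, limma-voom on the recovered reads served only as an alternative. The others were a pseudocount of 0.1, no minimum FPKM, a minimum of 5, TPM, median-of-ratios scaling, a replicate block, removal from each library of a spline trend (5 degrees of freedom each) on transcript GC content and log2 gene length, each library left out, and an unadjusted p under 0.05 with a log2 fold change beyond 0.5. The trend with NC 3 left out was added after seeing the data. The scripts were tested on simulated data.

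The members, their families and the other lists were chosen with earlier results of these data known. Named throughout are the heat shock factors, HSPA1A, HSPA1B, HSPA8, HSP90AA1, HSP90AB1, DNAJB1, HSPB1, HSPD1, HSPE1, TRAP1, TRiC and prefoldin, up to 8 of the largest changes in each direction among called members whose groups do not overlap (8 rises, and 5 falls, which is all there were), and the 2 largest rises and falls of each further list. A gene that this rule names is not reported here. Shared exon bases were counted on GENCODE 29, and shared stretches on its transcripts. Promoter sequences are from RefSeq (GRCh38.p14).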

Additional observations from a re-analysis of the deposited data

How the results depend on the processing

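Of 620 values of 38 named genes under the alternatives, 502 kept their direction and side of the threshold, 65 kept the direction but fell short of it, 19 kept the direction and newly passed it, and 34 changed sign. The count of members called higher was 34 with NC 3 left out and the GC and length trend removed and 11 when calls were made at p under 0.05 without adjustment and more than 0.5 on the log2 scale, and leaving out 1 library gave 13 to 25. The count of members called lower was 2 with no minimum FPKM and 2 with the same limits on p and fold, and 2 to 7 with 1 library left out. Over all tested genes, leaving out 1 library gave 4610 to 7410 calls, 2275 to 4025 of them higher. The main fit gave 7001 and 3668. With no minimum FPKM 5601 of 34391 genes were called, 2779 of them higher, and as TPM 6782 of 13796, 3302 of them higher. The median log2 fold change of the members was 0.18 with the trend removed, with or without a replicate block, and 0.21 with NC 3 also left out. Among the other cytosolic chaperones, higher calls were 8 with no minimum FPKM, 9 as TPM and 6 to 15 with 1 library left out, and lower calls were 5 with the trend removed, 4 with the block as well and 5 with NC 3 left out as well. Among the mitochondrial import, folding and proteolysis genes, higher calls were 5 with the block and the trend removed and 5 to 10 with 1 library left out, and lower calls were 1 with the trend removed, 1 with the block as well, 1 with NC 3 left out as well and 2 to 6 with 1 library left out. With the trend removed, with or without the block, log2 fold changes turned sign for HSF1 (-0.0295), STUB1 (-0.0024), HSPA14 (ENSG00000187522, 0.0248), FKBP8 (-0.1075), TRAP1 (-0.2271), TCP1 (0.0093), CCT5 (0.0612) and CCT8 (0.0853). With NC 3 left out as well they did for HSF1 (-0.0171), the same HSPA14 entry (0.0392), FKBP8 (-0.0978), TRAP1 (-0.1308), TCP1 (0.1135), CCT5 (0.1828), CCT8 (0.122), HSP90AB1 (0.0064) and PFDN1 (0.0271). With 1 library left out, the values ran from -0.0983 to 0.0437 for HSP90AB1, -0.1876 to 0.0272 for TCP1, -0.1455 to 0.1064 for CCT5 and -0.0601 to 0.0492 for PFDN1, positive in each case without NC 3 alone, and from -0.0512 to 0.0955 for CCT6A, negative without NC 1 or NC 2. The CCT6A log2 fold change was -0.0387 as TPM and -0.009 by median-of-ratios scaling, and the PFDN1 log2 fold change was 0.0042 by limma-voom. The cause was not tested.

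The replicate numbers were not used as pairs in the main fit. Deviations of same-numbered libraries from their group means correlated at 0.096, 0.013 and 0.13. The pairs numbered 1 and 3 gave the highest values between the groups, but NC 2 correlated more with siPSCA 1 (0.036) than with siPSCA 2. These low values do not decide whether the libraries were paired. With the replicate number as a block, 16 members were called higher (30.2%) and 6 lower (11.3%). Over all 13796 tested genes 6725 were called in that fit, 3572 of them higher. Of 39 values of named genes (HSPA14 under both IDs) 36 kept their call, with CCT3, CCT4 and DNAJC28 losing theirs. Depth limited HSPA1A, with 19 to 53 reads in NC, and PSCA, with 4 to 15 reads in a library. Values of HSPA1A and HSPA1B rest on how reads of near copies were assigned. Those of HSPA1B, HSPE1, STUB1 and PFDN6, among others, rest on reads from overlapping genes. BAG2 shares 42.7% of its exon bases with RAB23 and TRAP1 29.3% with DNASE1, both on the opposite strand.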
